A study of Mus musculus with 3 samples.

Results

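Genes of enzymes that cut the extracellular matrix or shed proteins from the cell surface, and of their inhibitors, were read in RNA bound to chromatin of macrophages. They were chosen by symbol from the annotation, with earlier results of these data known. They are Mmp8, Mmp9, Mmp12, Mmp13, Mmp14, Mmp19, Timp1, Timp2, Adam8 and Adam17, that is 10 of 55536 annotated gene entries. The series held 1 group of 3 biological replicates, primary macrophages grown from the bone marrow of C57BL/6J mice and treated with lipid A at 100 ng/ml for 90 minutes, with no genetic change given in the labels. Lipid A is the part of bacterial lipopolysaccharide that Toll-like receptor 4 recognises. RNA of the chromatin fraction, which is rich in transcripts still being made, was depleted of ribosomal RNA. The starting RNA was 1 µg for replicate 1, 250 ng for replicate 2 and 500 ng for replicate 3, so its effect and that of the replicate cannot be told apart. The labels give neither sex nor age. All 3 libraries carry the same donor label, so p-values measure only how far these libraries spread, which may be technical. Unstimulated cells were not analysed here, so each value is a level after lipid A and not a response to it.

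Matrix metalloproteinases (MMPs) are zinc enzymes, made as inactive precursors, that degrade collagens, elastin and other matrix proteins; most are secreted and some are held in the membrane. Tissue inhibitors of metalloproteinases (TIMPs) bind their active sites. ADAMs are related membrane proteases that cut the outer parts off surface proteins, and ADAM17 is the enzyme that releases the cytokine TNF from macrophages.

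The depth of the libraries was 11277198, 24965749 and 19794886 expected counts in replicates 1 to 3; protein-coding genes took 7715311, 10036048 and 9964310 of these. The limit that a count of 0 allows, 3 counts, was 0.266, 0.12 and 0.152 CPM, a limit that covers counting error only. Of 14 macrophage markers 10 lay above the bound of the test described next and none below (0 below also at an unadjusted p under 0.05, by edgeR and by DESeq2). With alignment-free TPM 7 were above and 1 below, and with a count minimum of 100, 6 and 2. Over all genes tested in the main fit, 21.3% were above and 21.3% below. Of 14 neutrophil markers only 2 passed the count minimum: Csf3r, which macrophages also express, was called above the bound at 28.83, 19.46 and 30.91 TPM in replicates 1 to 3 (not with a count minimum of 100), and Lcn2 was not called. Elane, Mpo, Ctsg, Ly6g and Retnlg were at 0 counts in all 3 libraries. The summed alignment-based TPM of 10 stromal markers was 0.28, 1.11 and 2.13 in replicates 1 to 3, with Thy1 at 0 counts. Of these markers, 4 were below the bound. In alignment-free TPM Thy1 alone exceeded this sum, at 11.0, 4.69 and 6.72 in replicates 1 to 3, highest in replicate 1. The 5 endothelial markers summed to 1.59 to 3.19 alignment-based TPM, of which Kdr gave 1.26 to 2.94, with Emcn at 0 counts. Here Pecam1 alone reached 8.88, 2.29 and 4.38 alignment-free TPM in replicates 1 to 3. Of 8 osteoclast markers, a list that holds Mmp9 itself, Acp5 and Atp6v0d2 passed the minimum and neither was called.

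Of the 10 genes, 4 stood well above the typical expressed gene: the sheddase genes Adam8 and Adam17 and the protease genes Mmp14 and Mmp13. Mmp19 was called below it, though not in 6 of 10 alternatives. Mmp12, Timp1 and Timp2 were not called on either side, and Mmp8 and Mmp9 were close to the limit of detection. The level of a gene was its log2(TPM + 1) minus that of the median protein-coding gene with a mean of at least 10 expected counts, which stood at 5.5, 3.7 and 4.93 TPM in replicates 1 to 3. Levels were tested with limma's treat against a bound of 1 log2 unit on either side, with Benjamini-Hochberg adjustment at 0.05 over 13434 genes. Of the 10 genes 8 passed the count minimum; 4 were called above the bound, where 21.3% of all genes tested were, and 1 below it, where again 21.3% were. The median of the mean TPM over all 10 genes was 6.68, against 0.213 over all 22028 annotated protein-coding genes, tested or not. Over tested genes only, the median level was 1.83 log2 units for the 8 genes and -0.211 for all 13434. The 10 genes were chosen with earlier results of these data known, so neither contrast is a test of them.

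**Figure D1:**
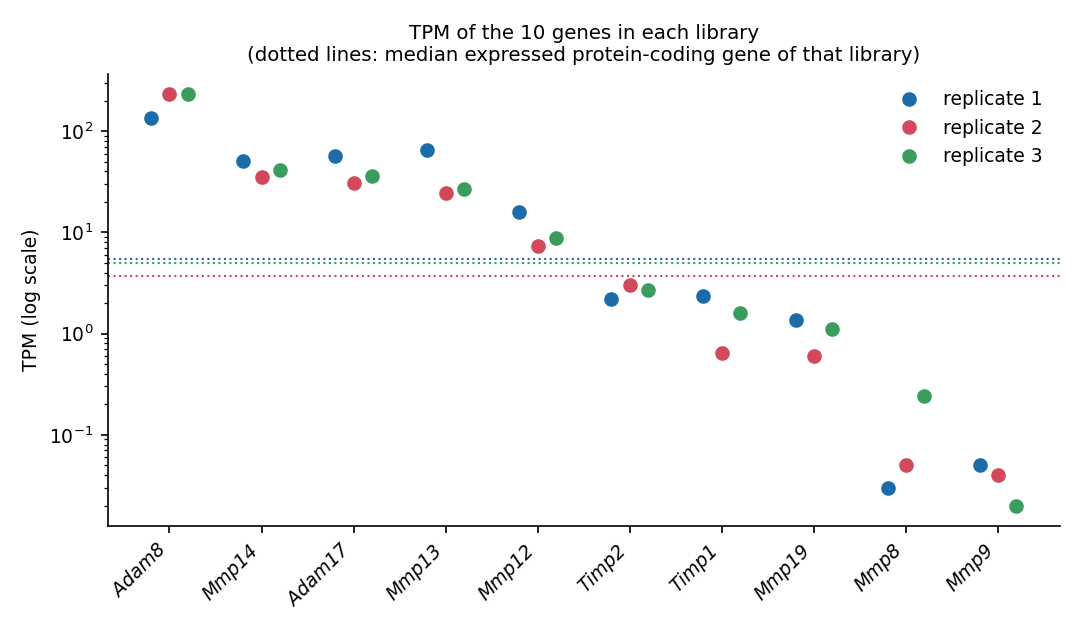
TPM of each gene (log axis) in each of the 3 libraries, ordered by mean TPM, with the median expressed protein-coding gene of each library as a dotted line. Adam8 is the highest gene in every library, and Mmp8 and Mmp9 lie between 0.02 and 0.24 TPM.

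Adam8 encodes a membrane protease of leukocytes that cuts adhesion molecules and matrix proteins. It lies on the minus strand of chromosome 7 (chr7:139978932-139992562, mm10) and has 8 annotated isoforms of up to 24 exons. It measured 134.95, 232.34 and 231.41 TPM in replicates 1 to 3, from 4839, 14948 and 12226 expected counts. Replicate 1 was the lowest library and replicates 2 and 3 were nearly equal. In alignment-free TPM replicate 2 was the lowest, while the alignment-free level was again lowest in replicate 1 (3.74, 4.92 and 4.59 in replicates 1 to 3). The mean was 199.6 ± 56.0 TPM (SD, n = 3), above 98.4% of the genes tested. Its level was 5.10 ± 0.64 log2 units (adjusted p = 3.52e-05, limma's treat). Adam8 alone made up 40.9%, 69.4% and 66.2% of the summed TPM of the 10 genes in replicates 1 to 3.

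Adam17 encodes the TNF-converting enzyme, which also sheds the TNF receptors and L-selectin. The gene spans 50124 bases on the minus strand of chromosome 12 (chr12:21323509-21373632) and has 10 annotated isoforms. Its TPM was 56.39, 30.87 and 35.75 in replicates 1 to 3, highest in replicate 1 as was the typical gene, and its expected counts were 2463, 2457 and 2339. The level of Adam17 was 2.85 ± 0.27 log2 units (adjusted p = 0.000204, limma's treat).

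Mmp14 encodes membrane-type 1 MMP, a collagenase anchored in the plasma membrane that activates the precursor of MMP2. It lies on the plus strand of chromosome 14 (chr14:54431612-54445364). It measured 50.84, 35.65 and 41.02 TPM in replicates 1 to 3. Set against the typical gene of each library these values hardly differed: the level was 2.93 ± 0.09 log2 units (adjusted p = 9.83e-05, limma's treat), and 7.5% of the genes tested had a smaller SD.

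Mmp13 encodes collagenase 3, which cuts fibrillar collagens and is the main interstitial collagenase of rodents. It has 1 annotated isoform of 10 exons on the plus strand of chromosome 9 (chr9:7272514-7283331). It measured 65.43 TPM in replicate 1 and 24.46 and 27.11 TPM in replicates 2 and 3, so the first library stood apart from the others in the direction opposite to Adam8. Its level was 2.68 ± 0.59 log2 units (adjusted p = 0.00119, limma's treat). The ratio of Adam8 to Mmp13 in TPM was 2.06 in replicate 1, 9.5 in replicate 2 and 8.54 in replicate 3. Without replicate 1 the level of Adam8 was 5.47 and that of Mmp13 2.35 log2 units. RNA amount (1 µg in replicate 1), the share of counts outside protein-coding genes and the alignment-based stromal marker sum given above also set replicate 1 apart. That sum was lowest in replicate 1, while alignment-free Thy1 was highest there. The part of all these in the differences was not tested. In RNA of many cells, fewer cells that use a gene and less RNA of it in each cell cannot be told apart.

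Mmp12 encodes macrophage elastase, which degrades elastin and is made mainly by macrophages. It starts 61.0 kb beyond the end of Mmp13 on the same strand (chr9:7344381-7369499). It measured 15.97, 7.32 and 8.86 TPM in replicates 1 to 3, again highest in replicate 1. The level of Mmp12 was 0.98 ± 0.35 log2 units, which did not pass the test (adjusted p = 0.87, limma's treat).

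**Figure D2:**
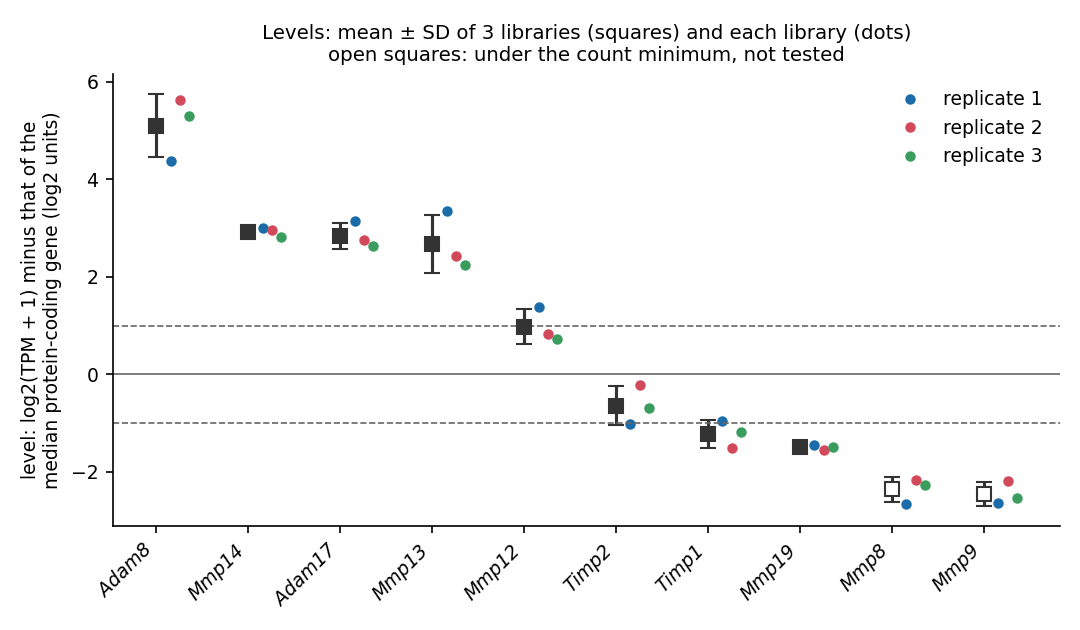
Level of each gene in log2 units relative to the median expressed protein-coding gene of its library, as the mean ± SD of 3 libraries (squares) and the value of each library (dots); dashed lines mark the bound of 1 log2 unit. Adam8, Mmp14, Adam17 and Mmp13 lie above the upper bound in every library, and Mmp19 lies below the lower bound in every library.

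Mmp12, Mmp13 and Mmp8 belong to a cluster of 10 Mmp genes within 427.1 kb of chromosome 9, and the levels along it were unequal. In this cluster 3 genes passed the count minimum, Mmp13, Mmp12 and Mmp27. Mmp27, which encodes a little-studied MMP, measured 20.42, 11.52 and 19.48 TPM in replicates 1 to 3. Its level of 1.64 ± 0.20 log2 units was called above the bound (adjusted p = 0.0114, limma's treat). Mmp8 ends 2.9 kb before Mmp27 starts, on the same strand, and had 1, 3 and 11 expected counts, against 458, 488 and 667 for Mmp27. Between Mmp12 and Mmp8, the stromelysin genes Mmp3 and Mmp10 and the collagenase genes Mmp1a and Mmp1b had 0 counts in every library, except Mmp10 with 3, 3 and 2. Mmp20 and Mmp7, at the far end, had 0 counts in all 3 libraries. The call of Mmp27 was lost with alignment-free TPM, with a count minimum of 100 and without replicate 3.

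**Figure D3:**
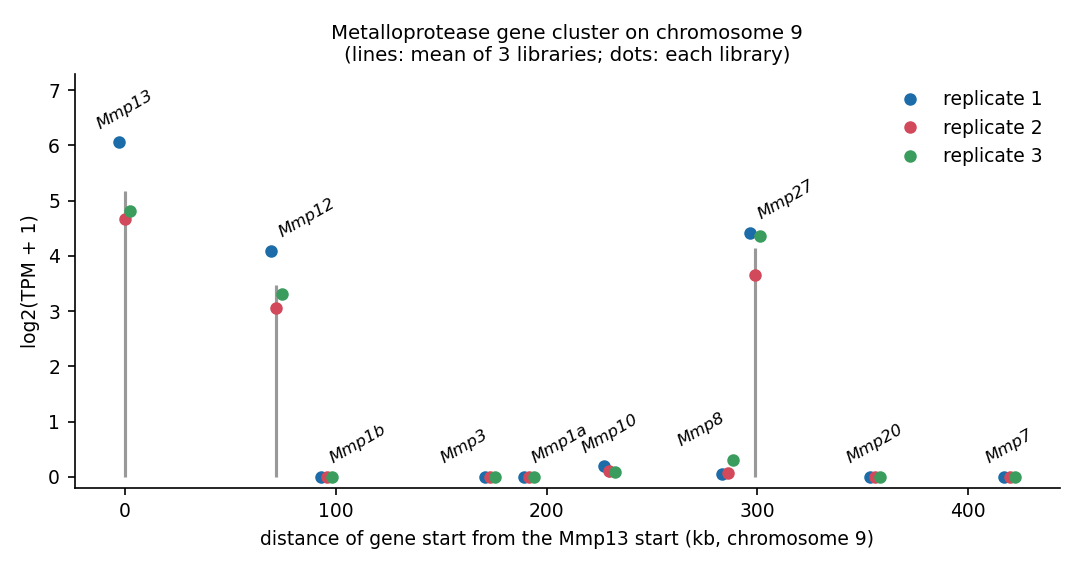
log2(TPM + 1) of the 10 Mmp genes of the chromosome 9 cluster against the distance of each gene's start from the Mmp13 start in kb; lines give the mean of 3 libraries and dots each library. Mmp13, Mmp12 and Mmp27 stand above 3 log2 units, and the 7 genes between and beyond them lie near 0.

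The 250 bases before the gene start are shown for genes of this cluster with unequal levels: Mmp13 (chr9:7272264-7272513), the downstream start of Mmp12 (chr9:7347124-7347373) and Mmp8 (chr9:7558179-7558428), all on the plus strand, taken from RefSeq with GRCm38.p6 coordinates. Capitals mark the AP-1 motif TGANTCA (read on both strands) and the TATA box TATAAA (read on the strand of the gene).
Mmp13: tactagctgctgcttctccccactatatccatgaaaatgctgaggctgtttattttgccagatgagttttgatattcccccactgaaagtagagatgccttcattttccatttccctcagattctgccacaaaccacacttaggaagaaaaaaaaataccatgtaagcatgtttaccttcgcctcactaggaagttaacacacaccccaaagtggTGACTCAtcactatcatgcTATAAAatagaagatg
Mmp12: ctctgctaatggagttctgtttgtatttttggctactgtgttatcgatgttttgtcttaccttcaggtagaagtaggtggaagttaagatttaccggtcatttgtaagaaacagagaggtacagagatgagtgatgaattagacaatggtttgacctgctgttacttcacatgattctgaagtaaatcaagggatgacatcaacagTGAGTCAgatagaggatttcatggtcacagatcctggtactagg
Mmp8: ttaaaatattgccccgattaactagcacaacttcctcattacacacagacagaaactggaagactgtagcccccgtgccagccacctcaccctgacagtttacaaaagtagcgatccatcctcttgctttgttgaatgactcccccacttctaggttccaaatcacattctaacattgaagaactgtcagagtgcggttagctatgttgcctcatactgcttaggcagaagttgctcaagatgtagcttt
Mmp13 holds the AP-1 motif 35 to 29 bases before its start and the TATA box 16 to 11 bases before it, and the downstream Mmp12 start holds the AP-1 motif 44 to 38 bases before it. The Mmp8 window holds neither. AP-1, a dimer of Fos and Jun proteins, is a transcription factor known to act at several MMP promoters. RefSeq starts were found for 8 of the 10 genes, in 9 windows, since Mmp12 has an upstream and a downstream start. No other window of the 8 genes held the AP-1 or the TATA letters, and none held the NF-kB letters, GGGA and CC with 4 bases of any kind between them on either strand. The letters AGGAAG, a core that ETS factors such as PU.1 bind, were in windows of 6 of the 8 genes: Adam17, Mmp12, Mmp13, Mmp14, Mmp8 and Timp1. Of 32851 windows of the same length in the genome's RefSeq starts, 6.75% held the AP-1 letters, 7.59% the TATA letters, 17.6% the NF-kB letters and 29.5% the ETS letters. A match describes the letters and not a site in use. The upstream Mmp12 window, which is not printed, held the ETS letters and no AP-1 letters. Windows of the cluster genes outside the 10, Mmp27 among them, were not searched. Whether any of these letters go with level along the cluster was therefore not tested.

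Mmp19, an MMP of broad substrate range that is found in many resting tissues, was the lowest by alignment-based TPM of the 8 genes that passed the count minimum; by alignment-free TPM Timp1 was lower (means of 4.35 for Mmp19 and 3.31 for Timp1). It measured 1.37, 0.6 and 1.12 TPM in replicates 1 to 3, from 54, 46 and 66 expected counts. Its level was -1.50 ± 0.05 log2 units, below the bound (adjusted p = 0.0225, limma's treat). The call was lost in 6 of the 10 alternatives that gave it a value, among them the alignment-free TPM (-0.76), the authors' posterior mean TPM (-1.28) and the fits without replicate 2 (-1.48) and without replicate 3 (-1.51). Counts of Mmp19 are uncertain at its end, where Tmem198b overlaps it by 789 bases on the opposite strand, since the strand setting is not given in the sources used here; Tmem198b measured 1.46, 0.52 and 1.07 TPM.

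Mmp8, the collagenase stored by neutrophils, and Mmp9, the gelatinase B of neutrophils, macrophages and osteoclasts, did not pass the count minimum and were not tested. Mmp8 measured 0.03, 0.05 and 0.24 TPM in replicates 1 to 3. Mmp9, on chromosome 2 (chr2:164940780-164955850), measured 0.05, 0.04 and 0.02 TPM, from 2, 3 and 1 expected counts. A few counts of Mmp9 were thus seen in every library, none above 3. The authors' posterior mean TPM of Mmp9 was higher, at 0.72, 0.48 and 0.53, so its level is poorly fixed at this depth.

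Neither inhibitor gene was called on either side of the bound. Timp2, which inhibits MMPs and also takes part in the activation of MMP2 by MMP14, measured 2.22, 3.04 and 2.67 TPM in replicates 1 to 3, with a level at -0.64 ± 0.40 log2 units (adjusted p = 1, limma's treat). Timp1, an inducible and secreted inhibitor, measured 2.36, 0.64 and 1.6 TPM from 21, 10 and 20 expected counts, a level of -1.22 ± 0.28 log2 units (adjusted p = 0.255, limma's treat). In this alignment-based TPM Timp1 was thus lowest in replicate 2, while Timp2 was highest there. In alignment-free TPM both were lowest in replicate 2, at 1.07 for Timp1 and 2.99 for Timp2. The alignment-free level of Timp2 was again highest there (-0.37 log2 units) and that of Timp1 lowest (-1.32). The 6 MMP genes together reached 133.7, 68.12 and 78.37 TPM in replicates 1 to 3 and both TIMP genes 4.58, 3.68 and 4.27 TPM, a ratio of 29.2, 18.5 and 18.4. With alignment-free TPM the ratio was 18.1, 15.5 and 14.7. It counts Timp1 and Timp2 only and leaves out Timp3, at 12.4, 1.54 and 3.65 alignment-free TPM. Timp1 lies inside the gene Syn1 on the opposite strand, and Cep295nl lies inside Timp2 on the same strand, so reads of these pairs may not be told apart. Mmp19 likewise lies within the antisense gene Gm47093, which had 1, 0 and 0 counts. Syn1 measured 0.99, 1.04 and 1.33 TPM and Cep295nl 5.38, 2.82 and 5.49 TPM, more than Timp2 in replicates 1 and 3.

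None of the 7 other inhibitor genes that were listed passed the count minimum. Timp3, the inhibitor known to act on ADAM17, had 2, 11 and 5 expected counts, and Reck, a membrane-bound inhibitor, 2, 3 and 2. Timp4, A2m, Spock1, Spock2 and Spock3 had 0 counts in all 3 libraries. The median of the mean TPM over the list was 0, against 0.213 over all annotated protein-coding genes. This list was left after Timp1 and Timp2 were chosen with earlier results of these data known, so the contrast is no test of it. The alignment-free table gave Timp3 more, at 12.4, 1.54 and 3.65 TPM in replicates 1 to 3, which is above Timp1 in the same table in every library.

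In the order of mean TPM, replicates 2 and 3 ranked the 10 genes identically, from Adam8 through Mmp14, Adam17, Mmp13, Mmp12, Timp2, Timp1, Mmp19 and Mmp8 to Mmp9. Replicate 1 placed Mmp13 next after Adam8 and Mmp14 after Adam17, and it set Timp1 above Timp2 and Mmp9 above Mmp8. Of 9 neighbouring pairs, 5 had the same direction in all 3 libraries, with a difference in level of 2.18 ± 0.69 log2 units for Adam8 minus Mmp14, 1.70 ± 0.24 for Mmp13 minus Mmp12, 1.62 ± 0.70 for Mmp12 minus Timp2, 0.28 ± 0.23 for Timp1 minus Mmp19 and 0.86 ± 0.31 for Mmp19 minus Mmp8. Timp1 minus Mmp19 turned to -0.36 with alignment-free and -0.05 with posterior mean TPM, and Mmp19 minus Mmp8 was 2.19 with alignment-free TPM and 2.52 with a pseudocount of 0.1, so the order of Timp1 and Mmp19 depends on the quantification. Neighbours that did not differ beyond their spread were Mmp14 and Adam17 (0.08 ± 0.20), Adam17 and Mmp13 (0.17 ± 0.33), Timp2 and Timp1 (0.58 ± 0.68), and Mmp8 and Mmp9 (0.09 ± 0.17). Mmp8 minus Mmp9 turned to -0.49 with posterior mean TPM. An exact permutation of the signs of 3 differences (two-sided) has 0.25 as its smallest p, which the 5 pairs named first reached. The pairs were formed from the order of mean TPM in these same libraries, so their directions are no independent support for that order.

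Spread between libraries was uneven over the genes. Adam8 and Mmp13 had SDs of level of 0.64 and 0.59 log2 units, larger than those of 88.8% and 85.9% of the genes tested, whose median SD was 0.29. On the scale of TMM-normalised CPM, which uses counts and not TPM, Adam8 measured 303.3, 827.0 and 647.8 and Mmp13 141.7, 89.3 and 74.1 in replicates 1 to 3. There the SD in log2 units was 0.75 for Adam8 and 0.48 for Mmp13, against a median of 0.40 over all genes tested. Among the 8 genes that passed the minimum Mmp19 had the smallest SD of level, 0.05, on a scale where the pseudocount of 1 pulls low values together.

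Much of the signal of Adam8, Mmp14, Adam17 and Mmp12 was placed on isoforms that the annotation types as retained intron, which hold intron sequence. Such isoforms held 62.0%, 37.0% and 37.9% of Adam8 TPM in replicates 1 to 3, a mean of 45.6% ± 14.2 (SD, n = 3). The mean share was 59.0% ± 7.10 for Mmp14, 50% ± 2.28 for Adam17 and 35.1% ± 9.41 for Mmp12. Over 5750 protein-coding genes with such an isoform and a mean of at least 1 TPM the median share was 45.7% (quartiles 29.3% and 61.8%), so these 4 genes lie within or close to the middle of that range. As a share of expected counts, such isoforms held 42.1% ± 15.1 of Adam8, 36.0% ± 5.83 of Mmp14, 35.9% ± 4.88 of Adam17 and 55.8% ± 7.62 of Mmp12. Mmp12 was thus the lowest of the 4 genes by TPM share and the highest by count share. Mmp13, Mmp8, Timp1 and Timp2 have protein-coding isoforms only.

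The coding share of Adam8 was lowest in replicate 1 in both tables, at 36.9%, 63.8% and 59.0% of its alignment-free and 36.5%, 61.3% and 59.2% of its alignment-based TPM in replicates 1 to 3. The coding isoforms summed to 49.25 TPM in replicate 1, 142.5 in replicate 2 and 137.0 in replicate 3, while the 3 retained-intron isoforms summed to 83.67, 85.92 and 87.66 TPM. The coding isoform Adam8-205, which lacks the last exons of the full-length forms, measured 4.25, 46.87 and 19.53 TPM. Its alignment-free TPM was 26.7, 38.3 and 38.9, so its spread between libraries depends on the quantification. Of the coding isoforms with 24 exons, Adam8-202 measured 29.18, 56.68 and 59.5 TPM and Adam8-201 15.82, 38.95 and 57.94 TPM. Alignment-free, Adam8-202 was at 36.6, 42.3 and 56.9 TPM and Adam8-201 at 0.0027, 17.9 and 26.6 TPM. Divided by the TPM of the typical gene of each library, the coding isoforms stood at 8.95, 38.5 and 27.8 times it and the retained-intron isoforms at 15.2, 23.2 and 17.8 times it. In alignment-free TPM the coding isoforms summed to 63.25, 98.5 and 122.3 TPM and the retained-intron isoforms to 104.1, 54.08 and 79.23 TPM.

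In alignment-based TPM the coding isoforms of Mmp14 summed to 16.1, 16.51 and 16.92 TPM and its retained-intron isoforms to 33.97, 18.88 and 23.44 TPM in replicates 1 to 3. Among these, Mmp14-205 is 1 exon of 1548 bases near the 5′ end of the gene and held 29.3% ± 1.45 of Mmp14 TPM. The coding isoforms of Mmp12 summed to 3.11, 3.15 and 3.39 TPM and its retained-intron isoform Mmp12-206 measured 7.34, 2.24 and 2.56 TPM. These sums are not scaled to the typical gene, which was highest in replicate 1. So scaled, the coding isoforms of Mmp14 stood at 2.93, 4.46 and 3.43 times it and were lowest in replicate 1. The alignment-free sums of the coding isoforms were 21.69, 12.06 and 14.96 TPM for Mmp14 and 12.75, 2.22 and 3.78 TPM for Mmp12. The coding isoform Mmp12-203, which uses the upstream start, held 25% ± 13.9 of Mmp12 TPM. The coding isoforms Mmp12-201 and Mmp12-202, which share the downstream start, held 8.13% ± 2.17 and 0.438% ± 0.759. Close to the downstream start also begin Mmp12-206, at 35.1% ± 9.41, and the decay isoform Mmp12-204, at 31.3% ± 4.34.

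Adam17 was spread over retained-intron, coding and decay isoforms. The isoforms with the largest shares were the coding form Adam17-201 at 14.55, 10.29 and 14.3 TPM in replicates 1 to 3, and the retained-intron forms Adam17-208 at 21.48, 9.28 and 10.21 and Adam17-204 at 8.01, 6.14 and 6.85 TPM. Isoforms typed as targets of nonsense-mediated decay, which carry an early stop codon, held 39.5% ± 5.75 of Adam17 TPM in the alignment-free and 15.5% ± 3.37 in the alignment-based table. The isoform behind that gap was Adam17-206, with 34.66, 8.27 and 17.33 TPM alignment-free and 0.6, 1.11 and 0.44 TPM alignment-based. For Mmp14 the decay isoform Mmp14-203 differed likewise, at 16.3% ± 2.60 in the alignment-free and 1.29% ± 0.488 in the alignment-based table. Isoform shares of Adam17 and Mmp14 therefore depend on the quantification.

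**Figure D4:**
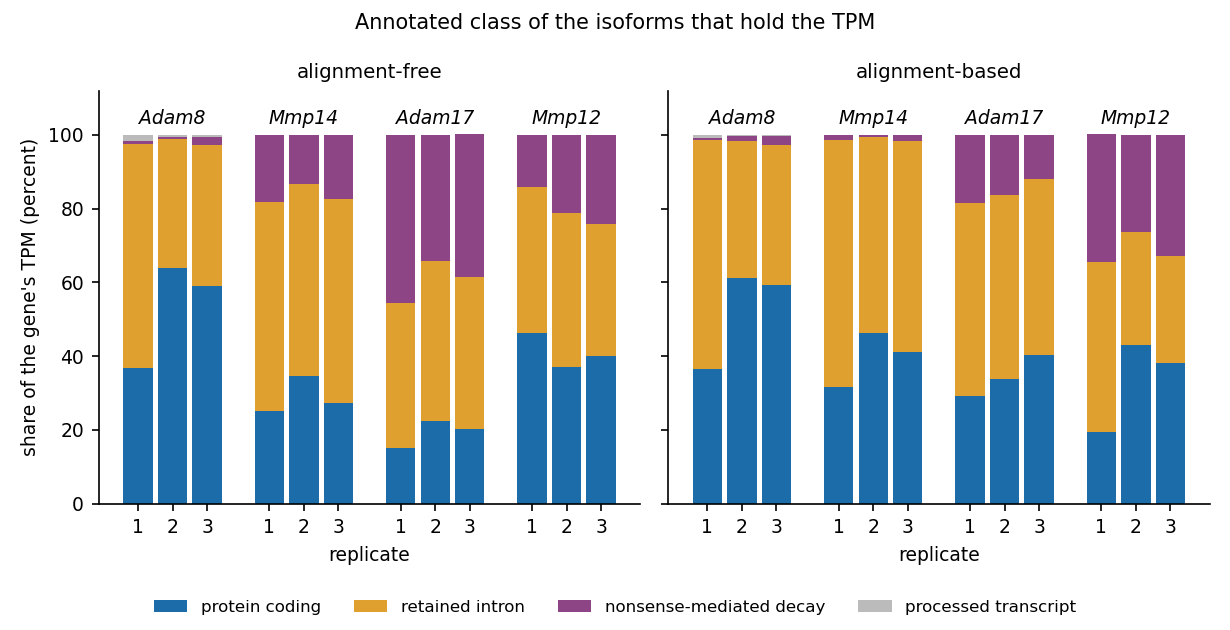
Share of each gene's TPM, in percent, held by the annotated isoform classes in each replicate, with the alignment-free table on the left and the alignment-based table on the right. The coding share of Adam8 is lowest in replicate 1 in both tables (36.9% and 36.5%), and the decay share of Adam17 and Mmp14 is larger in the alignment-free table.

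At the level of whole genes the quantifications did not differ beyond the bound for any of the 8 genes. In limma's treat test on the paired difference, alignment-free minus alignment-based, all 8 adjusted p-values were 1, where 2.53% of 13427 genes were called. None of the 8 had an unadjusted p under 0.05 either (0 genes), and under each alternative run 0 genes were called. The differences were still steady between libraries for some genes. The level of Adam8, set against the median of its own table, was lower in the alignment-free table in every library (-0.69 ± 0.04 log2 units), as was that of Mmp13 (-0.44 ± 0.13), and that of Mmp19 was higher in every library (0.74 ± 0.08). Unscaled TPM did not follow this in replicate 1, where Adam8 had 171.5 alignment-free and 134.95 alignment-based TPM; in replicates 2 and 3 its alignment-free TPM was 154.4 and 207.3. The levels of Adam17 (-0.04 ± 0.09) and Timp1 (0.10 ± 0.09) differed little.

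**Figure D5:**
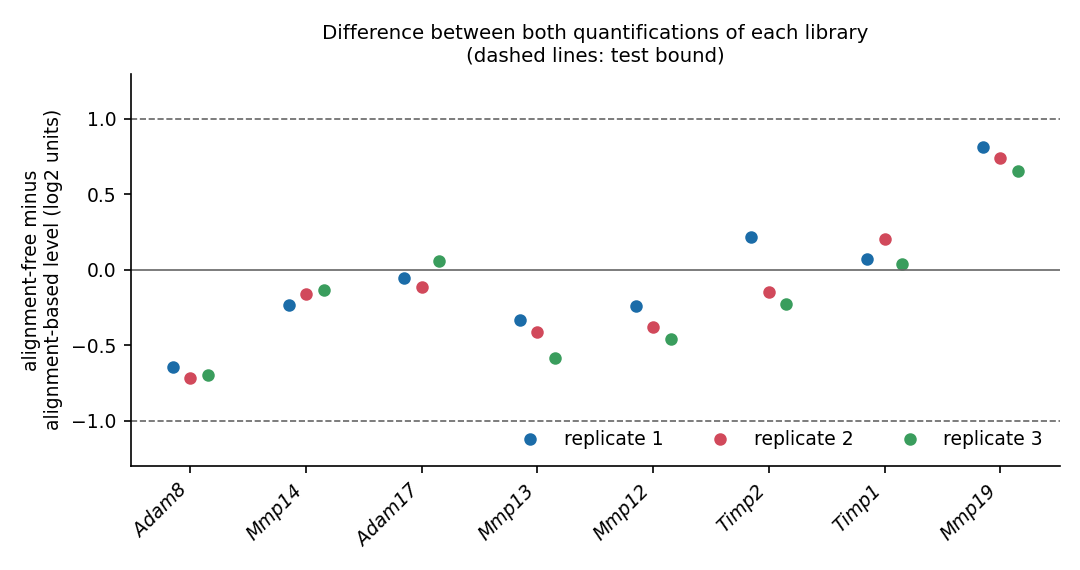
Difference in level, alignment-free minus alignment-based, in log2 units for the 8 genes that passed the count minimum, with 1 dot for each library; dashed lines mark the bound of 1 log2 unit. No gene passes the bound, and Adam8 (near -0.7) and Mmp19 (near 0.7) lie farthest from 0.

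Of the 60 other genes of the MMP, ADAM and ADAMTS families, 28.3% passed the count minimum, where 47.8% of all 22028 annotated protein-coding genes did. These counts are alignment-based. The 60 genes were left after the 10 were chosen with earlier results of these data known. This contrast and those that follow are therefore no test of the families. Of 17 other MMP genes, 3 passed the count minimum, and Mmp27 was called above the bound. The membrane-type genes Mmp25 (1.21, 0.83 and 1.11 TPM in replicates 1 to 3) and Mmp24 (0.5, 0.28 and 0.16 TPM) were called below. Neither was called below without a count minimum. Mmp25 was also not called with the median of all genes as reference, without replicate 2 or without replicate 3. The next highest, Mmp11, did not pass, at 1.08, 0.36 and 0.91 TPM. The median of the mean TPM over all 17 genes was 0.06, against 0.213 over all annotated protein-coding genes. Of 24 other ADAM genes 8 passed the minimum and 2 were called, both above the bound; below it 2 more had an unadjusted p under 0.05, and edgeR and DESeq2 called the same number, Adam4 and Adam19, named after their values were seen. The genes above were Adam9, a widely expressed sheddase, at 24.01, 19.8 and 24.37 TPM, and Adam33 at 16.59, 21.77 and 25.71 TPM. Neither was called with a count minimum of 100, and Adam33 was not called with alignment-free TPM. The third, Adam15, measured 3.37, 4.11 and 3.53 TPM. Adam10, the sheddase closest to ADAM17, measured 4.04, 2.08 and 3.09 TPM and was not called (-0.50 ± 0.12 log2 units), but with a count minimum of 100 it was called below (-1.57); it falls outside the rule for named genes and was chosen after its values were seen. Of 19 ADAMTS genes, secreted relatives that cut proteoglycans and procollagens, 6 passed the minimum, 0 were called above (0 also at an unadjusted p under 0.05, by edgeR and by DESeq2) and 4 below: Adamts7, Adamts1, Adamts6 and Adamts14, at 0.08 to 0.91 TPM. None of these 4 was called below without a count minimum, and Adamts7 was not without replicate 3 or with the median of all genes as reference. Over all genes tested, 21.3% were called above the bound and 21.3% below. Adamts4, an aggrecanase, measured 13.22, 4.87 and 9.99 TPM and Adamts10 5.14, 5.6 and 7.2 TPM; neither was called, but without a count minimum Adamts4 was called above (1.73 log2 units).

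Genes listed as partners of ADAM17, a list that also holds Tspan5, were mostly present. All 7 listed genes passed the count minimum. Of these, 3 were called above the bound and 1 below, where 21.3% of all genes tested were on each side. Rhbdf2, which encodes iRhom2, the protein that carries ADAM17 to the surface of macrophages, measured 129.07, 116.92 and 145.22 TPM in replicates 1 to 3, with a level at 4.53 ± 0.18 log2 units (adjusted p = 1.23e-05, limma's treat). That is more than Adam17 itself in every library. Pacs2, a sorting protein known to recycle ADAM17, and Map3k7, which encodes the kinase TAK1, were called above the bound at means of 26.0 and 23.1 TPM. Neither was called with a count minimum of 100. Tspan5, a tetraspanin known as a partner of ADAM10, was called below the bound (-2.13 ± 0.18 log2 units), but not with alignment-free TPM or without a count minimum; without replicate 2 it did not pass the minimum. Furin and Pcsk7, convertases of the kind that remove the prodomain of ADAM proteases, measured 54.29, 49.15 and 65.76 TPM and 31.32, 22.88 and 26.0 TPM, and both were called above the bound. Pcsk7 was not called with a count minimum of 100. The other 3 of the 5 convertases listed had at most 1 count in a library.

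Of 18 genes for ADAM17 substrates, 12 passed the minimum, where 47.8% of all annotated protein-coding genes did. Of the 12 substrate genes tested, 8 were called above the bound and 1 below, where 21.3% of all genes tested were on each side. The 3 highest were Icam1, an adhesion molecule, at a mean of 406 ± 68.0 TPM, Cd40, a co-stimulatory receptor, at 323 ± 25.7 TPM (SD, n = 3), and Tnf, the cytokine from which the enzyme has its name, at 165 to 202 TPM in the 3 libraries. Il6ra, which encodes the interleukin-6 receptor, was called below at 0.97, 1.02 and 1.15 TPM, a call that was lost in 5 of 11 alternatives, including each of the 3 that left out a replicate. The median of the mean TPM over all 18 genes was 9.66, against 0.213 over all annotated protein-coding genes. Over tested genes only, the median level was 2.83 log2 units for the substrates and -0.211 for all. This list too was chosen with earlier results of these data known, so these contrasts are no test of it.

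Of 9 genes of the plasminogen system, the serine protease system that also activates MMPs, 6 passed the minimum, 3 were called above the bound and 1 below. Over all genes tested, 21.3% were called above and 21.3% below. Plgrkt, a plasminogen receptor, measured 119.8, 62.56 and 104.1 TPM in replicates 1 to 3, and Plaur, the receptor of urokinase, 61.93, 55.99 and 72.42 TPM; both were called above. Serpinb2, an inhibitor of urokinase, was called below at 1.13, 0.62 and 0.49 TPM, from 28, 29 and 18 expected counts. Its call was lost without a count minimum and without replicate 3.

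By Euclidean distance of the 3 library levels, over 10529 other protein-coding genes, the nearest to Adam8 were Nlrp3 (132.5, 233.8 and 218.9 TPM in replicates 1 to 3) at a distance of 0.0845 log2 units and Nfkb2 at 0.241. Nearest to Mmp14 were Arhgap31 at 0.119 and Lamp1 at 0.133. Nearest to Adam17 were Snx1 at 0.104 and Ptpra at 0.106. This distance uses 3 libraries of 1 group, so it describes a like level and a like order of the libraries and no more.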

How the data were processed

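Total RNA-seq of the chromatin fraction was used from 3 libraries of 1 group, with group, replicate, RNA amount, dose and time from the labels. The 10 genes and all gene lists were chosen with earlier results of these data known.

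Each library had a gene table and a transcript table with expected counts and TPM, made by the authors from an alignment to the transcriptome (mm10, GENCODE M21, per the deposited description files; column names as RSEM writes them, per the file headers). A further deposited transcript table, called alignment-free, holds estimated counts and TPM and was made without an alignment file; its column names are those of kallisto, per the file headers. Not given in the sources used here are the aligner, its version, filters, and strand and multi-mapping settings. Deposited TPM was scaled over all entries of a file. The deposited percent of each isoform and the deposited signal bounds of the credibility interval of TPM were not used in a test. The deposited score, an effective length per the file headers, entered the normalisation of the edgeR and DESeq2 fits. It was not used in the main fit. Alignment-free transcripts were summed to genes.

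Tests used genes whose expected count averaged 10 or more, on log2(TPM + 1) minus the median of 10530 protein-coding genes of the library, with limma 3.58.1 (R 4.3.3, treat, intercept only, bound 1). The pseudocount understates differences of low genes. Fold changes between conditions were not computed, since there is 1 group. The paired difference of the quantifications was tested in the same way, and edgeR 4.0.16 gave TMM factors of 1.439, 0.726 and 0.956. The fits were tested on simulated data. edgeR and DESeq2 1.42.0 on rounded expected counts, other pseudocounts, count minima, references and TPM columns, and leaving out each replicate were the alternatives. Named genes were the 10 genes; of each list the 3 with the highest mean TPM, up to 3 called below the bound and those of the chromosome 9 cluster; and for the 3 highest genes the 2 nearest by Euclidean distance. A gene that this rule names in the plasminogen list is not reported here. Promoter sequences came from RefSeq (GRCm38.p6).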

Additional observations from a re-analysis of the deposited data

Results flagged for a closer look

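Some genes had a signal in 1 quantification only. Of 77 genes of the MMP, TIMP, ADAM and ADAMTS families and related inhibitors, 25 had no alignment-based count in any library, and 10 of these had more than 3 alignment-free counts in each library, over the limit that a count of 0 allows. In the lowest library Mmp16 had 3.61 TPM (3 libraries: 7.92, 3.61 and 8.59), Adamts9 2.34 TPM, Adam28 1.92 TPM, Spock3 0.346 TPM, Spock2 0.298 TPM, Mmp15 0.264 TPM, Adamts17 0.177 TPM, Adamts19 0.146 TPM, Timp4 0.0568 TPM and Mmp20 0.0403 TPM. For Adamts9, Adamts19 and Spock3 the leading isoform was typed as retained intron, holding 84.8%, 100% and 100% of the gene's alignment-free TPM. The alignment-free counts over annotated genes summed to 18314396, 45543190 and 34166907, more than the alignment-based 11277198, 24965749 and 19794886 in replicates 1 to 3. The part of strand settings and of the counting rule in these values was not tested.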

How the results depend on the processing

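Levels are relative to a median of expressed genes and so move with the count minimum, and those of low genes also with the pseudocount and the tool (Adamts14 -2.32, and -4.36 with a pseudocount of 0.1 and -4.98 with edgeR). Without a count minimum Mmp8 and Mmp9, not tested in the main fit, were called below the bound and Mmp19 was not (-0.55 log2 units). That made 2 of the 10 genes, against 1 in the main fit. None was below with the median of all genes as reference, with posterior mean TPM or with alignment-free TPM (0 in each), and leaving out 1 replicate gave 0 to 1. Adam8, Mmp14 and Adam17 stayed above the bound in each alternative run, and Mmp13 in each but the count minimum of 100 (1.61 log2 units, adjusted p = 0.0811, limma's treat). Mmp12 was called above only without a count minimum (1.93 log2 units); with a minimum of 100 its level was -0.089. The levels of Adam10 and Adam15 were 0.45 and 0.67 without a count minimum, and those of Adamts4 and Adamts10 -0.29 and -0.78 with a minimum of 100 (Adamts10 -0.04 with alignment-free TPM); these genes were not called in those fits, but Adam10 was called below with a minimum of 100 (-1.57) and Adamts4 above without one (1.73). Timp2 had a level of 0.31 without a count minimum and was called below with a minimum of 100 (-1.71). Without a count minimum 4928 of all genes were called above and 5539 below, and with a minimum of 100, 1317 and 785; leaving out 1 replicate gave between 1546 and 3232 below. Of the genes of the fixed lists other than the markers, 19 were called above and 9 below, where 21.3% of all genes tested were on each side. With a minimum of 100 the list counts were 11 and 4, and without one 27 were below. The quantifications differed for 523 genes with a pseudocount of 0.1, 618 without a count minimum and 136 with a minimum of 100, against 340. The retained-intron share of Adam17 was 41.4% alignment-free. Leaving out 1 replicate left 5 to 9 neighbouring pairs in the same order. No paired analysis was possible because there is 1 group. Depth limits the low genes: Mmp8, Mmp9, Timp1 and Mmp19 rest on 66 counts or fewer in a library.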
